A study of Mus musculus with 4 samples.

Results

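The 4 ErbB receptor genes of the mouse, Egfr, Erbb2, Erbb3 and Erbb4, were examined for open chromatin in a single list of 3190 regions (peaks) called from FAIRE-seq of cultured mammary cancer cells. Each gene was represented by a fixed window of the mm9 genome that held the gene and about 100 kb on each side, and a peak was a member when its midpoint fell in a window. The members were 4 of the 3190 peaks: 2 in the Egfr window, 2 in the Erbb3 window, 0 in the Erbb2 window and 0 in the Erbb4 window. Among other windows of the same length on the same chromosome, the share with at least 1 peak was 35.5% for Egfr, 27.6% for Erbb2, 24.4% for Erbb3 and 58.8% for Erbb4. FAIRE is an assay of open chromatin: after formaldehyde fixation, DNA with few nucleosomes escapes into the soluble phase and is sequenced.

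The cells came from 2 groups of FVB mice, and each group was sequenced once after FAIRE and once as input DNA, giving 4 libraries. The hyperglycemic cells came from MMTV-PyMT/PANIC mice and the euglycemic control cells from MMTV-PyMT mice, so mouse line and glucose state cannot be told apart. Both groups carry the polyomavirus middle T antigen under the mouse mammary tumour virus promoter, which drives it mainly in mammary epithelium. The cells had been freshly isolated and cultured in serum-containing medium without treatment, and neither the age of the mice nor the number pooled is given in the sources used here. The peak list is tied to no library, it does not state its treatment and control libraries, and read depth is unknown. No value below can be assigned to one condition or known to come from both, there were no replicates, and a cell type could not be checked against markers. A peak called against input would mark open chromatin and a peak called against the other condition would mark a difference.

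The ErbB receptors are tyrosine kinases of the cell surface that pair with one another when a ligand binds. Egfr binds epidermal growth factor and its relatives, Erbb3 and Erbb4 bind neuregulins, Erbb2 has no known direct ligand and acts as the preferred partner of the others, and Erbb3 has little kinase activity of its own and signals through its partner. In mammary epithelium they take part in duct growth and milk production, and ERBB2 is amplified in a subset of human breast cancers. The study is titled after the axis of neuregulin 1 and HER, the human name of the ErbB family.

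The promoter sequences are shown because the windows around Erbb2 and Erbb4 held no listed peak. The nearest peaks at Egfr lay away from the edge where that gene starts. Windows were set to hold each gene with about 100 kb on each side, and the promoters were not placed on mm9. They are the 250 bases before the RefSeq start of each gene in GRCm38.p6, 5′ to 3′ on the strand of the gene (plus for Egfr and Erbb2, minus for Erbb4), from the C57BL/6J reference and not from the FVB cells. Capitals mark GC boxes, searched as GGGCGG and, for the other strand, CCGCCC; 3 of the 4 genes were matched in the table, and Erbb3 was not.
Egfr: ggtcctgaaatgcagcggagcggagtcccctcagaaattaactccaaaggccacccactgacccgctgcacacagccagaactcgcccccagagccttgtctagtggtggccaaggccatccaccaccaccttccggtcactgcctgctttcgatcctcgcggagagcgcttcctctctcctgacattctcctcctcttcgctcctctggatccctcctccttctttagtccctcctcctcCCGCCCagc
Erbb2: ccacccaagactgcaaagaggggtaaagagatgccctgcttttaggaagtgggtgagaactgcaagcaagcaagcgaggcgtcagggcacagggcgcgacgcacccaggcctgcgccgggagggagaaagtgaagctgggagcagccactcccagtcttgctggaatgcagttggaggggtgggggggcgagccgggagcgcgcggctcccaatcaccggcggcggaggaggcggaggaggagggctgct
Erbb4: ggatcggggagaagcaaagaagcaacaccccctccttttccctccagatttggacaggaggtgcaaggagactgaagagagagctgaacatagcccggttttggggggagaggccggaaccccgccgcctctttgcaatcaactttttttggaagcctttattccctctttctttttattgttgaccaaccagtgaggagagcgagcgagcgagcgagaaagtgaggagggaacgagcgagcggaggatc

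All 3 promoters were richer in CpG dinucleotides than the median of 6 over 32851 mouse promoter sequences of the same length. The Erbb2 promoter held 16 CpGs and was 66% G or C, the Erbb4 promoter held 12 and was 54%, and the Egfr promoter held 11 and was 60.8%, against a median of 52.4% G or C. More CpGs than Erbb2 were found in 23.5% of promoters, more than Erbb4 in 31.5% and more than Egfr in 33.5%. A GC box was present once, in the Egfr promoter, and 32.7% of all promoters held one. No TATA box, searched as TATAAA and TTTATA on the 2 strands, was found in the 3 sequences, where 12.4% of all promoters held one. The CCAAT box, searched as CCAAT and ATTGG, was found once, in the Erbb2 promoter, against 33.8% of all promoters. No sequence held more than 1 match, so none overlapped. A match describes letters in these windows and not a bound site.

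Egfr, the receptor of epidermal growth factor, had 2 listed peaks in its window on chromosome 11 from 16550000 to 16915000. The first lay at chr11:16635185-16635930, was 746 bp wide and scored 51.51. It fell in the flank, 14.1 kb below the gene interval, which is the window less 100 kb at each end (16650000 to 16815000) and so places the gene only to within the rounding of the window. The second, at chr11:16691082-16691781, was 700 bp wide, scored 61.25 and was the only one of the 4 member peaks inside a gene interval. It began 41.1 kb above the lower edge, which is the end where Egfr starts, and ended 123.2 kb below the upper edge. The score is the authors' own value from their peak caller and was used only to rank peaks within the list.

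Of the Egfr peaks, the first was weak for this list and the second lay nearer its middle. The list starts at a score of 50.01 and has a median of 64.42, so both lay below the median, and 7.96% and 42.8% of the list scored lower than the first and the second peak. They were separated by 55.2 kb. Below them the nearest listed peak was 4169.6 kb beyond the lower edge of the window, at chr11:12379576-12380380 (score 72.71). Above them it was 154 kb beyond the upper edge, at chr11:17069006-17069726 (score 70.03). The 2 peaks stood at the upper end of a long stretch without listed peaks, which was not ranked. The stretch across the middle of the gene interval, from the second peak to the next one above, measured 377.2 kb. Of the 213 stretches between neighbouring peaks on chromosome 11, 74 were longer than that.

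Erbb3, the kinase-impaired neuregulin receptor, also had 2 listed peaks in its window, on chromosome 10 from 127900000 to 128130000. Neither lay in the gene interval of 128000000 to 128030000. The lower one, at chr10:127986112-127986719, was 608 bp wide, scored 52.81 and ended 13.3 kb below the interval. The upper one, at chr10:128063431-128064276, was 846 bp wide, scored 86.61 and began 33.4 kb above it. The upper peak ranked 645 of 3190 by score, above the upper quartile of 81.04, and was the highest of the 4 member peaks. The lower one ranked 2753.

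The Erbb3 peaks lay among others. Just outside the window, 6.97 kb below its lower edge, was a peak at chr10:127892353-127893029 with a score of 57.04. Another, 3.33 kb above its upper edge at chr10:128133333-128133881, scored 58.33. The count of 2 thus depended on where the window ended: with flanks of 250 kb it was 5. The genes next to Erbb3 in the RefSeq order of GRCm38.p6 are Pa2g4, which encodes the ErbB3-binding protein EBP1, on one side and Rps26, a ribosomal protein gene, on the other. Because gene annotation of mm9 was not used here, none of these peaks was assigned to a neighbouring gene.

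Erbb2, the ligandless partner receptor, had 0 listed peaks in its window on chromosome 11 from 98170000 to 98400000 (95% exact Poisson interval 0 to 3.69). The nearest peak below lay 888.6 kb beyond the window, at chr11:97280796-97281444 (score 68.23). The nearest above lay 143.2 kb beyond it, at chr11:98543213-98543958 (score 59.35). The window also held no peak at the near neighbours of Erbb2 in the RefSeq order, Pgap3, Mien1 and Grb7, as far as these genes lie within 100 kb of it. Grb7 encodes an adaptor that binds activated ErbB receptors and is often co-amplified with ERBB2 in human tumours. The stretch between the 2 nearest peaks measured 1.26 Mb, and 24 of the 213 stretches between neighbouring peaks on chromosome 11 were longer. A long stretch is likelier to hold any given gene, and an empty window needs one. The rank thus does not show that the stretch is unusual.

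Erbb4, the second neuregulin receptor, spans the longest of the 4 intervals, 1080 kb, and its window on chromosome 1 from 67975000 to 69255000 also held 0 listed peaks (95% exact Poisson interval 0 to 3.69). The nearest peak below was 1081.9 kb beyond the window, at chr1:66892290-66893126 (score 63.8). The nearest above was 161.1 kb beyond it, at chr1:69416111-69416892 (score 88.09). The empty stretch measured 2.52 Mb, and 19 of 220 stretches on chromosome 1 were longer. As at Erbb2, an empty window needs a long stretch, so the rank does not show this one to be unusual. Beyond the upper end of the stretch lay 2 further peaks, chr1:69499082-69500316 with a score of 102.5 and chr1:69507238-69508497 with a score of 146.37, the latter ranking 68 in the list. They were the highest scoring peaks within 1 Mb of the middle of any of the 4 intervals, and lay outside the window.

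**Figure D1:**
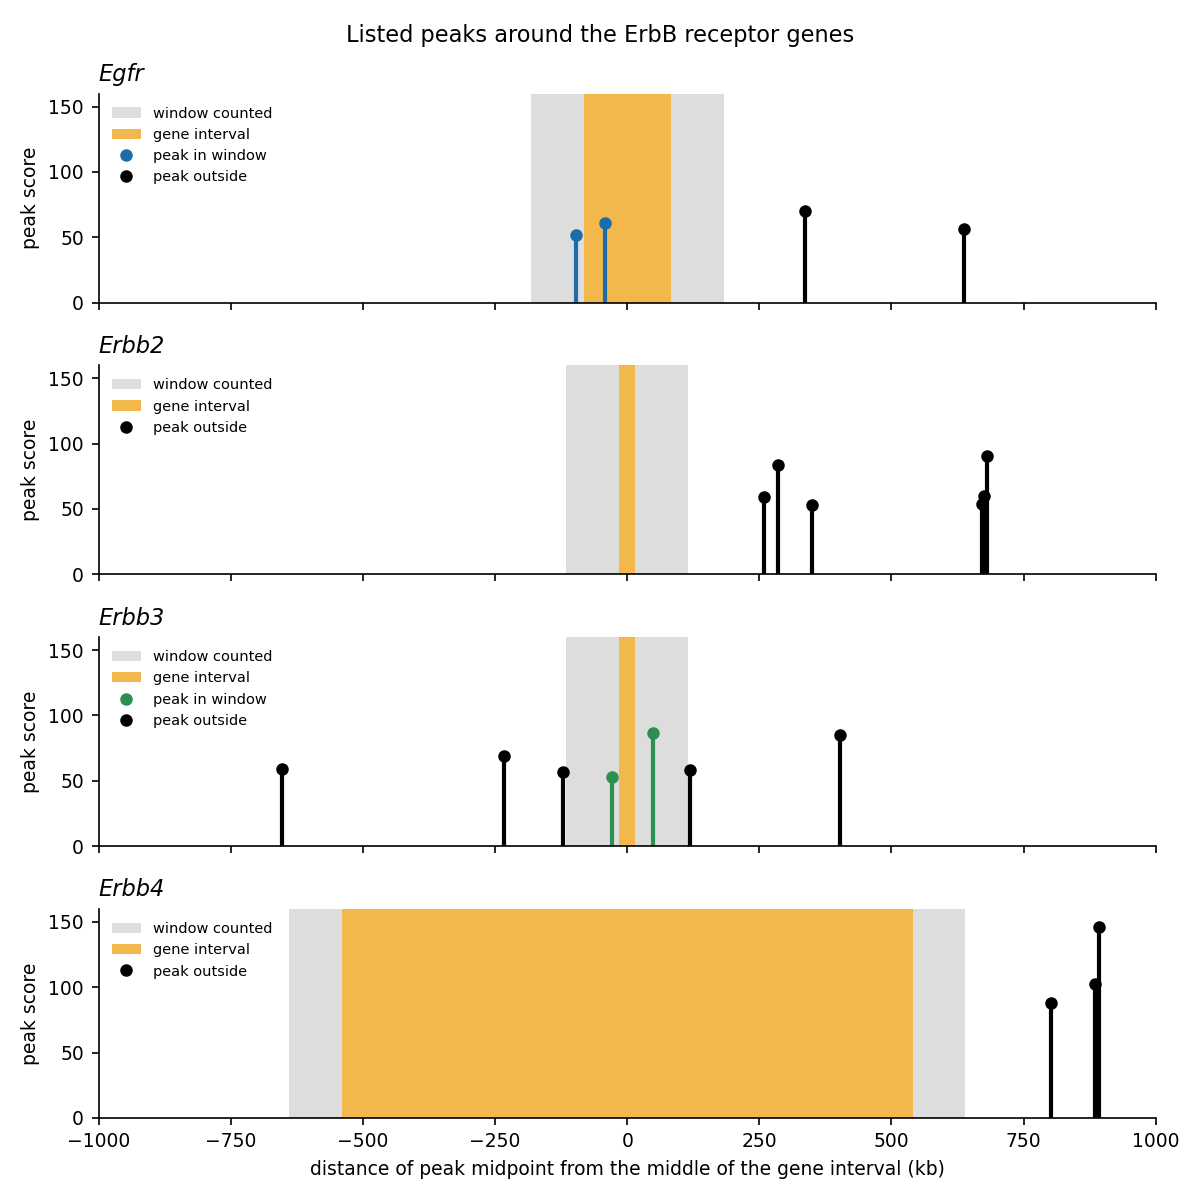
Listed peaks within 1 Mb of the middle of each gene interval, 1 panel a gene; the x axis is the distance of the peak midpoint from that middle in kb, and the height of each stem is the authors' peak score. Grey marks the window counted, orange the gene interval, coloured stems the 4 peaks in a window (2 for Egfr, 2 for Erbb3) and black stems the peaks outside.

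The wider surroundings of the 4 genes differed in how peaks were placed. Within 1 Mb of the middle of the interval there were 4 peaks at Egfr, 6 at Erbb2, 7 at Erbb3 and 3 at Erbb4. These counts are over 2 Mb, and whole chromosomes held 1.81 (chromosome 11), 1.72 (chromosome 10) and 1.15 (chromosome 1) peaks per Mb. The gene interval took up 1080 kb of the 2 Mb at Erbb4, against 30 kb at Erbb2 and Erbb3. A difference in count between the genes was not tested. At Erbb3 they lay on both sides, 4 below the middle and 3 above it. All 6 at Erbb2 lay above the gene, with 3 of them between 671.5 and 681.1 kb from the middle. All 3 at Erbb4 lay above it as well, between 801.5 and 892.9 kb from the middle. Median scores of these peaks were 58.80 at Egfr, 59.83 at Erbb2, 59.27 at Erbb3 and 102.50 at Erbb4. Of the 20 peaks, 9 reached the list's median score, of which 3 of 3 were at Erbb4 and 1 of 4 at Egfr.

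The count at each gene was then set beside all windows of the same length on the same chromosome, laid end to end from the gene's own window between the first and the last listed peak. For Egfr, 35.5% of 321 windows of 365 kb held at least 1 peak (95% exact binomial interval 30.3 to 41%). A count of 2 or more was found in 62 of them (19.3%), and 24 (7.48%) held more than 2. For Erbb3, 24.4% of 541 windows of 230 kb on chromosome 10 held at least 1 peak (20.8 to 28.2%). A count of 2 or more was found in 49 (9.06%), and 17 (3.14%) held more than 2. The highest counts in these windows were 5 for the length of Egfr and 6 for that of Erbb3. The place of Egfr depended on the score and the window length: among peaks at or above the median score its window held 0 and 21.6% of windows held more, and with flanks of 250 kb 17.6% held more. Without flanks Erbb3 held 0 peaks, and 4.69% of windows of that length held more.

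The empty windows were common ones. For Erbb2, 27.6% of 511 windows of 230 kb on chromosome 11 held at least 1 peak (23.8 to 31.7%), and the other 370 windows (72.4%) held none. For Erbb4, 58.8% of 148 windows of 1280 kb on chromosome 1 held at least 1 peak (50.4 to 66.8%), and 61 (41.2%) held none. A window without a peak was the more frequent kind for the length of Erbb2, and the less frequent kind for the length of Erbb4. These shares describe 1 list and are no test: neighbouring windows are not independent, and the windows were not matched for gene content or for sequence to which reads map uniquely.

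**Figure D2:**
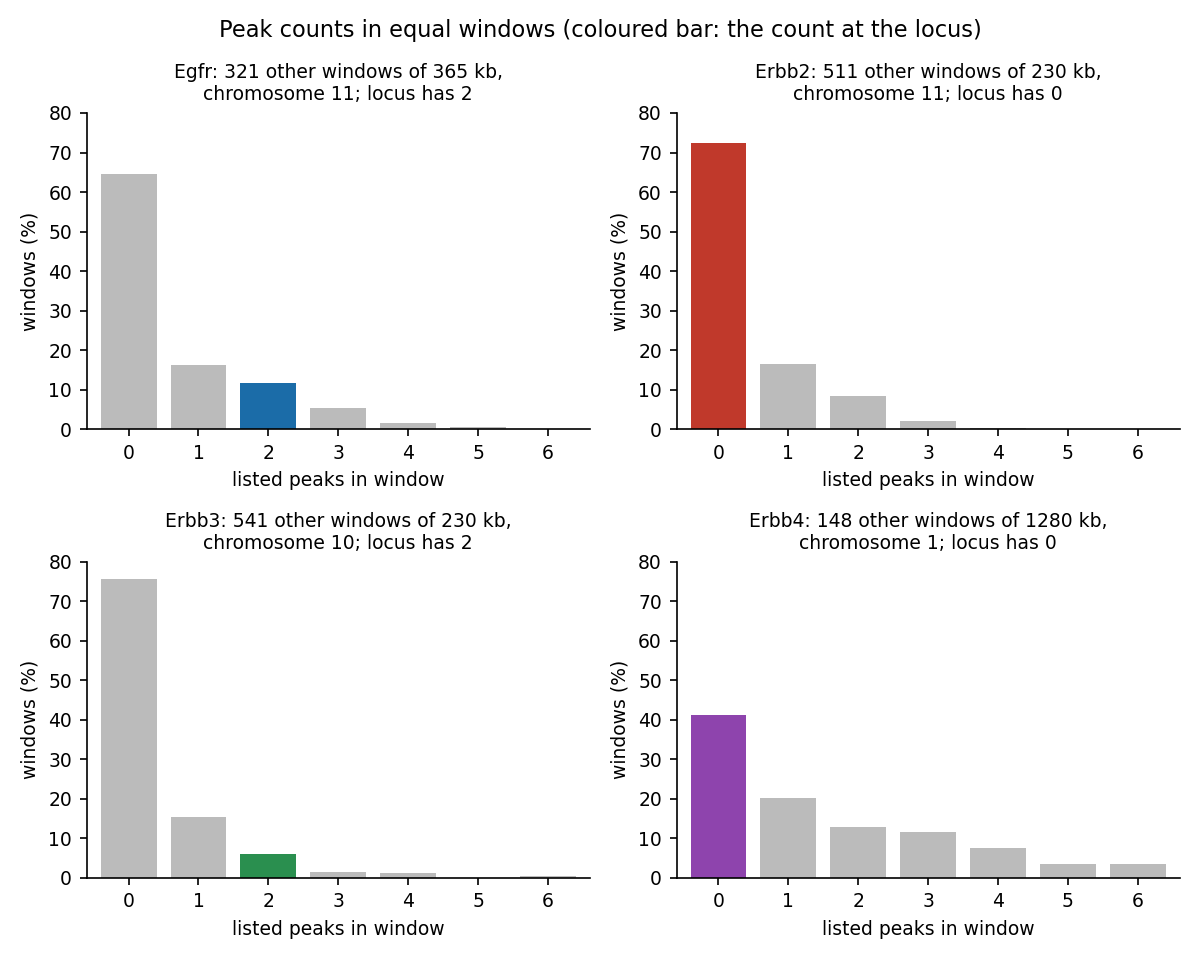
Share of equal windows on the same chromosome, in percent, by the number of listed peaks they hold, 1 panel a gene. The coloured bar is the count found at the gene: 2 for Egfr and Erbb3, where 7.48% and 3.14% of windows held more, and 0 for Erbb2 and Erbb4, where 72.4% and 41.2% of windows also held none.

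Densities carried wide counting error. Egfr had 5.48 peaks per Mb (95% exact Poisson interval 0.664 to 19.8) against 1.81 over chromosome 11. Erbb3 had 8.7 per Mb (1.05 to 31.4) against 1.72 over chromosome 10. At the density of the chromosome 0.662, 0.417, 0.396 and 1.47 peaks would fall in the windows of Egfr, Erbb2, Erbb3 and Erbb4, and all 4 values lay within the Poisson intervals of the counts. Over the 4 windows together, which span 2.1 Mb, the 4 peaks compared with 2.95 (interval of the count 1.09 to 10.2). For Erbb2 and Erbb4 a count of 0 could not have excluded these values, as its interval reaches 3.69. Counts in the equal windows also spread more widely than Poisson counts of the same mean. Their mean was 0.651 with a standard deviation of 1.05 for Egfr, and 0.39 with 0.844 for Erbb3. The intervals therefore do not decide whether the number of peaks at the ErbB receptors differs from that of their chromosomes.

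The 4 peaks were ordinary in size. Their widths of 608, 700, 746 and 846 bp compare with a list median of 779 bp and quartiles of 644 and 921 bp, so 1 lay above the median and 1 below the lower quartile. By score, 1 of 4 reached the median, the upper Erbb3 peak. The highest nuclear score of the list was 246.65.

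**Figure D3:**
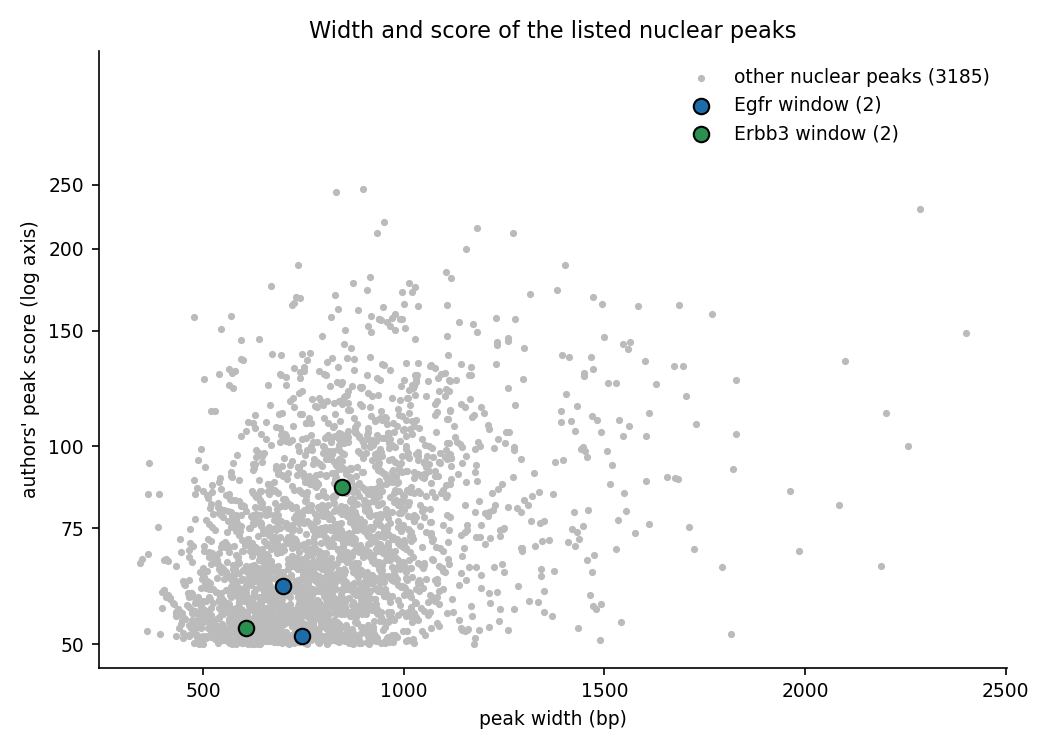
Width in bp and authors' score, on a log axis, of the nuclear peaks, each point 1 peak, with the 2 peaks of the Egfr window in blue and the 2 of the Erbb3 window in green. Of the 4, 1 peak, in the Erbb3 window with a score of 86.61 and a width of 846 bp, lies above both medians.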

How the data were processed

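FAIRE DNA and input DNA were sequenced with 1 library of each kind for each of 2 conditions, and 1 list of 3190 peaks was deposited for the series. Per the submitters' processing notes the authors called peaks with MACS on mm9; the aligner, settings and libraries were not given in the sources used here. The list the authors deposited gives 1 score per peak, of unstated scale. Starts count from 0 in the list and are printed from 1. Read depth is unknown, so intervals cover counting error of peak numbers only.

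Peaks were assigned to the 4 windows by midpoint. The genes named are the 4 receptors; every peak in a window and the nearest peak on each side are given. Equal windows were laid end to end from each locus between the first and last peak of its chromosome, leaving out the locus. Intervals are 95% exact Poisson or Clopper-Pearson. Gene order and promoters came from RefSeq tables of GRCm38.p6, another build, whose coordinates were not used. The windows are those given with the rule and could not be checked against mm9 annotation, which was not used here. The counting was tested on simulated data. The members and lists were chosen with earlier results of these data known. Alternatives were score minimums, any overlap, merging within 10 kb, other flanks, sliding windows and all autosomes. Software was scipy 1.17.1, pandas 2.3.3 and numpy 2.4.6 under Python 3.11.15, with figures from matplotlib 3.10.9.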

Additional observations from a re-analysis of the deposited data

How the results depend on the processing

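No paired analysis was possible because the list holds no value for any single library, and leaving out a library could not be done either. The counts at Egfr and Erbb3 depended on the score and the window. At or above the median score 0 of the 2 Egfr peaks and 1 of the 2 Erbb3 peaks remained, and the same numbers at the upper quartile. Without flanks the counts were 1 at Egfr and 0 at Erbb3. With flanks of 250 kb they were 5 at Erbb3 and 1 at Erbb2, and in a window 1 Mb wide in total, centred on the middle of the gene interval, 6 at Erbb3 and 3 at Erbb2. That window was chosen after seeing the data, and at Erbb4 it is narrower than the gene interval of 1080 kb. The Erbb4 count was 0 under each alternative. Shares were judged against the 95% exact binomial interval of the reported share of equal windows with more peaks than the locus. At Egfr and Erbb3 this is the share with more than 2 peaks, whose interval is not printed. Windows are not independent, so the interval is only a yardstick. The share of equal windows with more peaks than the locus left that interval as follows. At Egfr it was 4.48% over all autosomes, 21.6% at or above the median score, 17.6% with flanks of 250 kb and 16.4% for the window 1 Mb wide. At Erbb2 it was 21.1%, 14%, 4.86% without flanks and 18.1% for the window 1 Mb wide, the first 2 over all autosomes and at or above the median score. At Erbb4 it was 49.5% for the window 1 Mb wide and 43.2% with scores from the median up. Erbb2 stayed empty at or above the median score and without flanks, as did Erbb4 in both of its settings. At an empty locus, fewer peaks or shorter windows lower the share by construction, so those moves say nothing about the locus. At Erbb3 it lay between 2.03% and 4.69% under each alternative run. Merging within 10 kb changed no count and moved no share outside its interval. Counting any overlap, run for the counts, changed none, and sliding windows, run for the shares, moved none outside its interval. Unknown depth limits what an empty window shows.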
